A study of Mus musculus with 12 samples.

Results

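The response of 2 mandibular fibrochondrocyte lines to serum starvation was compared gene by gene, asking for which genes starvation acted differently in NG2|EDmut cells and in control cells. All 12 libraries of the series entered the comparison, in 4 groups of 3: NG2|EDmut cells under serum starvation, NG2|EDmut cells in serum, control cells under serum starvation and control cells in serum. For each gene the interaction was the log2 response to starvation of NG2|EDmut cells minus that of control cells, so that a positive interaction means a higher starved-to-serum ratio in NG2|EDmut cells. Of 29862 genes listed, 18703 had enough counts to be tested, and 821 of these had an interaction in edgeR's quasi-likelihood test at a Benjamini-Hochberg adjusted p under 0.05, which is 4.39% of the genes tested.

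Both lines came from the mandibular condylar cartilage of C57BL/6J mouse pups aged 10 to 14 days and were immortalized with hTERT. The control line is a single clone, sorted on GFP, with the full-length NG2/CSPG4 ectodomain. The NG2|EDmut line is a clone derived from it, in which CRISPR/Cas9 truncated the type VI collagen binding region of the ectodomain. The serum-supplemented groups were kept in AMEM with heat-inactivated fetal bovine serum and the starved groups in Opti-MEM without serum, so that loss of serum and change of basal medium cannot be told apart. The duration of starvation at RNA extraction is not stated. The replicates are cultures of 1 clone per line, and the p-values measure the spread between those cultures, not between independently edited clones. That spread is estimated once per gene over all 4 groups. The p-value of the response of 1 line therefore also carries the spread of the other line's libraries. In bulk RNA, fewer cells of one kind and less RNA per cell cannot be told apart.

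NG2/CSPG4 is a transmembrane chondroitin sulfate proteoglycan of mesenchymal progenitors, pericytes and chondrocytes that binds type VI collagen outside the cell and modulates growth factor and integrin signaling. Serum brings growth factors, which activate the ERK kinase cascade, and lipoproteins, which bring cholesterol. ERK signaling induces immediate early transcription factors together with its own inhibitors, the Sprouty and Spred proteins and the dual specificity phosphatases, so the level of these transcripts follows the pathway within hours. Cholesterol shortage releases the transcription factor SREBP2 from the endoplasmic reticulum, and SREBP2 activates the genes of sterol synthesis and supply.

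Total estimated counts ranged from 60277881 to 77172479 per library. One library stood apart: control serum replicate 1 had a correlation of log2 levels with the other control serum libraries as low as 0.9535, and as high as 0.9699 with a starved control library. Counts of calls are therefore also given without it. The starved control group was uneven too. Its replicates 1 and 2 had a correlation of 0.9697, the lowest within the group. The 0.9699 given above was that of its replicate 1 with control serum replicate 1, the library that stood apart. Krt8, an epithelial marker, was at 7.70 CPM in starved control replicate 1 and at 0.21 and 0.13 CPM in replicates 2 and 3. In the other groups Krt8 was at 4.43 to 10.1 CPM. Of 12 markers of mesenchyme and fibrochondrocytes, 10 averaged above 1 CPM (estimated counts after scaling by the effective library size), Col1a1 and Col1a2 among them. Acan, the cartilage proteoglycan, was at 0 to 1.34 CPM and Prg4, the lubricating proteoglycan of joint surfaces, at 0.06 to 2.17 CPM, so these 2 cartilage markers were near absence in every library. Col2a1 and Sox9, of the same list, were at 9.68 to 46.9 CPM and 18.8 to 49.2 CPM. The sum of 10 macrophage markers was 16.3 to 24.7 CPM in starved NG2|EDmut cells, 11.5 to 17.7 CPM in NG2|EDmut cells in serum, 86.1 to 122 CPM in starved control cells and 47.3 to 86.8 CPM in control cells in serum, most of it Lyz2, while Ptprc, the pan-leukocyte marker, was at 0 to 0.14 CPM.

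Cspg4 (ENSMUSG00000032911), the edited gene, lies on chromosome 9 from 56865033 to 56899870 on the plus strand (GRCm38, by the gene starts in the deposited table). It had 202, 232 and 251 CPM in starved NG2|EDmut cells and 251, 219.9 and 151 CPM in NG2|EDmut cells in serum, against 96.7, 53.9 and 102 CPM in starved control cells and 178, 135 and 84.2 CPM in control cells in serum. Starved and serum values overlapped in both lines. The interaction of 0.80 ± 0.41 (log2, SE) did not pass (edgeR adjusted p = 0.325, and 0.394 without control serum replicate 1). A count over the whole gene cannot show the truncation.

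The 821 interactions were 380 with a higher (2.03% of genes tested) and 441 with a lower (2.36%) response in NG2|EDmut cells, and the median interaction over all tested genes was -0.03. The share of higher calls was 46.3%, but 57.7% (494 of 856) when libraries were scaled by their totals alone, so the balance of the directions depends on the scaling. Control cells responded to starvation in 3779 genes (20.2%), of which 1767 rose (9.45%) and 2012 fell (10.8%). NG2|EDmut cells responded in 385 (2.06%), of which 179 rose (0.957%) and 206 fell (1.1%). Both counts rested on single libraries. The NG2|EDmut count was 1453 without control serum replicate 1, a library of the other line that enters the shared estimate of spread. A missed threshold in NG2|EDmut cells is thus not by itself a lack of response. The NG2|EDmut count was 142 to 247 without an NG2|EDmut serum replicate. It was 136 without NG2|EDmut starvation replicate 2, and 148 without NG2|EDmut starvation replicate 1 or 3. The control count was 6390 without control serum replicate 1, 2225 without control serum replicate 2 and 2461 without control starvation replicate 3. Without control serum replicate 1, 3901 of 19265 genes had an interaction (20.2%), with 1986 higher (10.3%) and 1915 lower (9.94%). All 821 were among them with the same sign, and 625 of the 821 were larger in absolute size. Leaving out each of the other 11 libraries in turn gave 339 (without NG2|EDmut starvation replicate 3) to 585 (without control starvation replicate 1) calls.

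Each called gene was sorted by which of the 2 responses passed the same threshold. The lines responded in opposite directions in 67 genes, which is 8.16% of the genes called and 0.358% of those tested. In 23 of these (0.123% of tested) NG2|EDmut cells rose and control cells fell, and in 44 (0.235%) NG2|EDmut cells fell and control cells rose. Only the NG2|EDmut response passed in 88 genes (10.7% of called, 0.471% of tested), with 30 rises (0.16%) and 58 falls (0.31%). Only the control response passed in 607 genes (73.9% of called, 3.25% of tested), with 298 rises (1.59%) and 309 falls (1.65%). Both lines moved the same way by unequal amounts in 13 genes (0.0695% of tested), and neither response passed by itself in 46 (0.246%). Without control serum replicate 1 these counts were 249 opposite (1.29% of tested), 237 in NG2|EDmut cells alone (1.23%), 2898 in control cells alone (15.0%), 355 in the same direction (1.84%) and 162 with neither (0.841%).

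**Figure D1:**
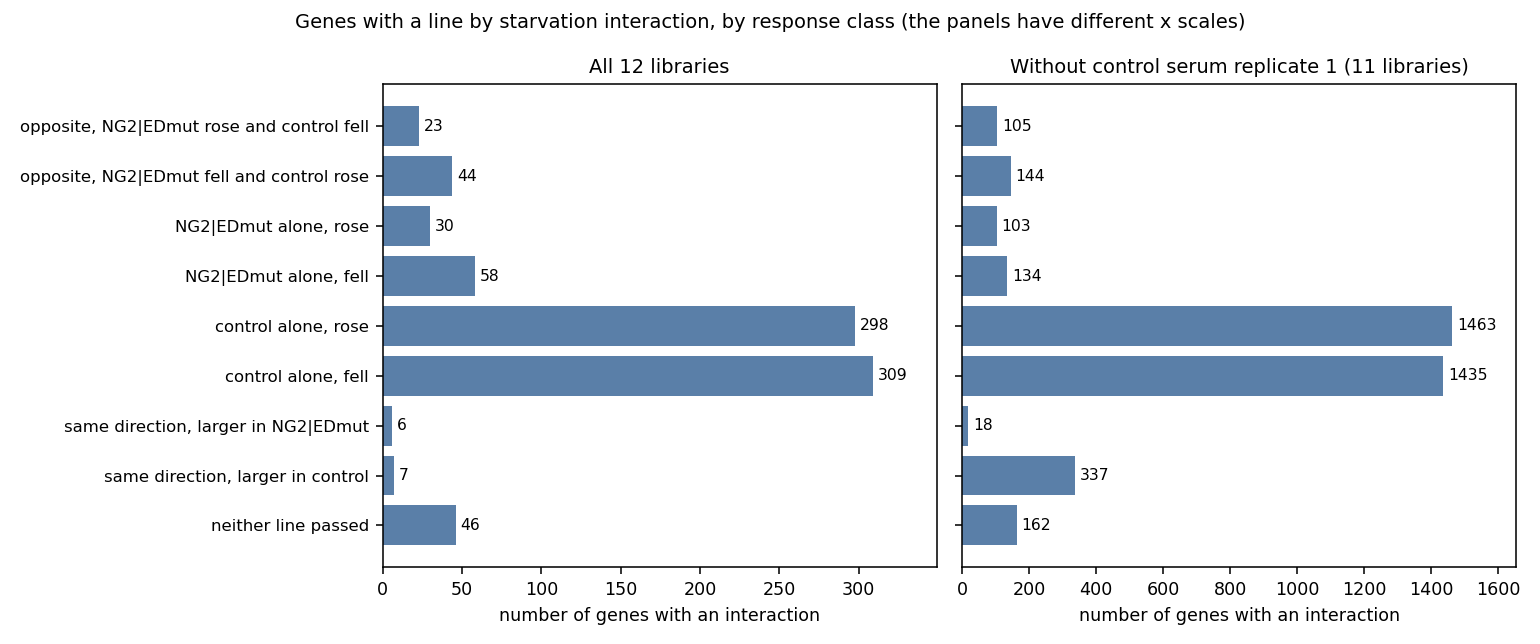
Number of genes with an interaction in each response class (x axis, genes; y axis, class), with all 12 libraries on the left and without control serum replicate 1 on the right, where the x scale is larger. Genes in which the control response alone passed make up 607 of 821 on the left and 2898 of 3901 on the right, and opposite responders 67 and 249.

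Of the 67 opposite responders, 66 stayed opposite without control serum replicate 1, and the other, Apol9b, moved to NG2|EDmut cells alone. Of the 88 genes in NG2|EDmut cells alone, 71 stayed, 13 became opposite and 4 became same direction. Of the 607 in control cells alone, 503 stayed, 84 became opposite and 14 became same direction, so that a gene counted in 1 line alone may still have moved in the other below the threshold. The classes shrank when other libraries were left out: without NG2|EDmut starvation replicate 2 there were 23 opposite responders, 42 genes in NG2|EDmut cells alone and 256 in control cells alone.

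**Figure D2:**
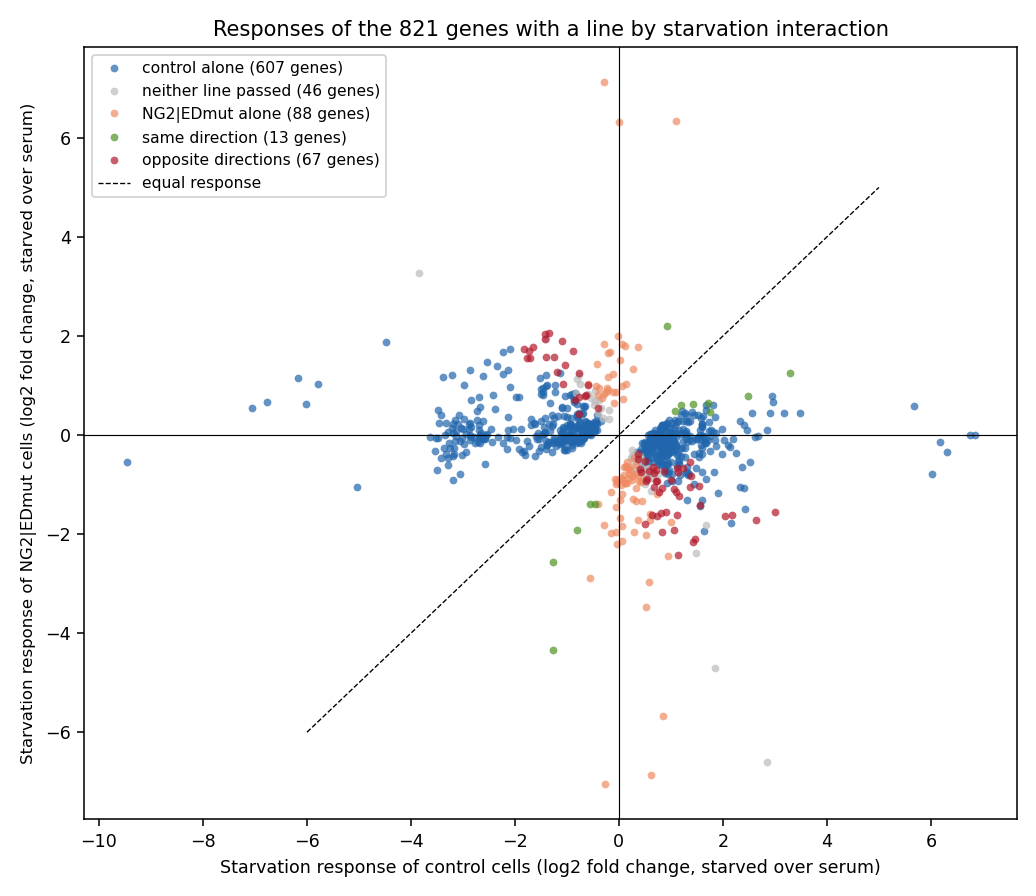
Response to starvation of each gene with an interaction, control cells on the x axis and NG2|EDmut cells on the y axis (log2, starved over serum), coloured by class, with a dashed line where both responses are equal. The 67 opposite responders lie in the upper left and lower right quadrants, and the 607 genes of control cells alone are stretched along the x axis.

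With all 12 libraries, the genes that rose in NG2|EDmut cells and fell in control cells were largely those of cholesterol synthesis and uptake. Of 25 genes of that list, all of them tested, 24 had a higher interaction, 15 of them as opposite responders, 6 as falls in control cells alone (Acat2, Pmvk, Idi1, Ebp and Stard4 among them), and 1 each as a rise in NG2|EDmut cells alone (Srebf2), a rise in both lines (Tm7sf2) and neither (Nsdhl). The list had a median response of 1.55 in NG2|EDmut cells and -1.19 in control cells (log2), beside -0.01 and 0.04 over all genes tested, and a median interaction of 2.59. The calls were 96.0% of the list, beside 4.39% of all genes tested. Without control serum replicate 1, all 25 were called, beside 20.2% of all genes, and 23 were opposite responders. The class of rises in NG2|EDmut cells with falls in control cells then held 105 genes (0.545% of those tested). These 23 were thus a minor part of it. Leaving out each of the other 11 libraries gave 20 to 23 calls.

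Hmgcs1 (ENSMUSG00000093930), the synthase that makes HMG-CoA at the entry of the mevalonate pathway, lies on chromosome 13 from 119690379 to 119708260, plus strand. It had 353, 369 and 336 CPM in starved NG2|EDmut cells and 95.9, 91.3 and 131 CPM in NG2|EDmut cells in serum. In control cells it had 127, 111 and 117 CPM under starvation and 220.0, 577 and 459 CPM in serum. Starved values lay above all serum values in NG2|EDmut cells and below all of them in control cells, where serum replicate 1 was the lowest of its group. The response was 1.73 in NG2|EDmut cells and -1.82 in control cells, with an interaction of 3.55 ± 0.39 (log2, SE; edgeR adjusted p = 0.000564).

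Hsd17b7, a ketosteroid reductase of a later step, had 63.6, 72.4 and 69.4 CPM in starved NG2|EDmut cells and 16.3, 13.7 and 23.2 CPM in NG2|EDmut cells in serum, against 29.0, 22.5 and 22.4 CPM in starved control cells and 36.6, 87.0 and 75.0 CPM in control cells in serum. As for Hmgcs1, the groups did not overlap within either line and moved in opposite directions. Its interaction was 3.37 ± 0.40 (edgeR adjusted p = 0.000936). Fdps, the farnesyl diphosphate synthase, had 204, 199 and 185 CPM in starved and 37.2, 37.9 and 68.1 CPM in serum-supplemented NG2|EDmut cells, and 75.2, 103 and 75.2 CPM in starved and 78.6, 271 and 331 CPM in serum-supplemented control cells. Its control groups overlapped, because serum replicate 1 lay within the starved range. The Fdps interaction was 3.47 ± 0.58 with all libraries and 3.87 without that replicate.

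Later steps of the pathway moved in the same way. Cyp51, the lanosterol demethylase, had an interaction of 3.44 ± 0.54, Msmo1, the methylsterol oxidase, 3.27 ± 0.47, and Fdft1, the squalene synthase, 2.59 ± 0.30 (log2, SE). In Msmo1 the starved NG2|EDmut libraries had 131, 139 and 122 CPM and the serum ones 37.5, 37.7 and 58.7 CPM, against 56.3, 64.2 and 50.7 CPM in starved control cells and 81.9, 216 and 266 CPM in control cells in serum. Starved NG2|EDmut cells and control cells in serum were thus the high groups for Msmo1, and the other 2 groups the low ones. The opposite list also held Mvk and Mvd of the mevalonate steps, Sqle and Lss of the squalene steps, Dhcr7 and Sc5d of the last steps, and Insig1, which holds SREBP2 back when sterol is plentiful (interaction 2.03 ± 0.27).

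**Figure D3:**
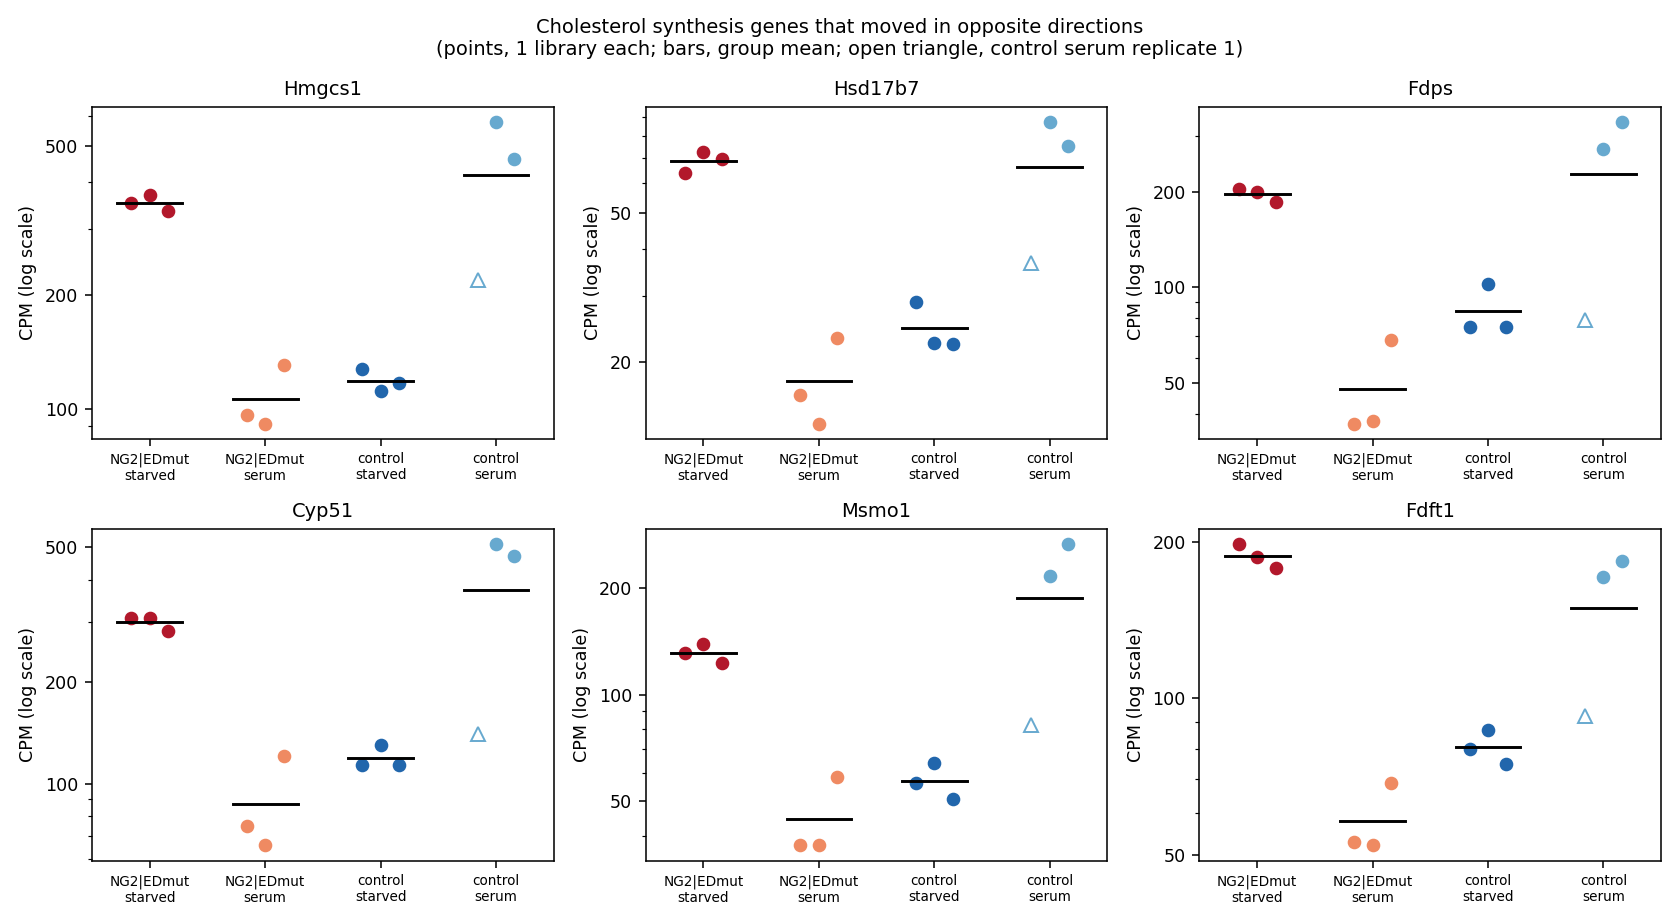
Level (CPM, log axis) of 6 genes of cholesterol synthesis in each library, with starved NG2|EDmut, serum-supplemented NG2|EDmut, starved control and serum-supplemented control cells from left to right; points are libraries, the open triangle is control serum replicate 1, and bars are group means. In all 6 genes starved NG2|EDmut cells lie above NG2|EDmut cells in serum, and the mean of starved control cells lies below that of control cells in serum, where replicate 1 is the lowest point.

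The promoter of Hmgcs1 is shown because, of the 17 promoters of the cholesterol list in the RefSeq table (GRCm38.p6, 250 bases before to 50 after the transcript start), it was the one with the sterol response motif TCACNCCAC, searched on both strands. That is 5.88% of the list, beside 1.38% of 12352 tested genes with a promoter. The window is chr13:119690101-119690400 on the plus strand, and the capitals mark the match, which begins 137 bases before the start:
Hmgcs1: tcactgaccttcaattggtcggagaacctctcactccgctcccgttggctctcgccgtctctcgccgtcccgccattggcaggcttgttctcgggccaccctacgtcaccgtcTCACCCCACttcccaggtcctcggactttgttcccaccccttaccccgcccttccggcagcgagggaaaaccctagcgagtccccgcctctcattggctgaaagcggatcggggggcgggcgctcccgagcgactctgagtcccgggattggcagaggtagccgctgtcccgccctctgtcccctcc
A match is a run of letters and not a measured binding site. The E-box CACGTG was found in 4 of the 17 promoters (23.5%), beside 11.2% of all.

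Outside that list, 8 genes rose in NG2|EDmut cells and fell in control cells with all 12 libraries. Pi15, a secreted peptidase inhibitor, had 4.59, 4.76 and 5.18 CPM in starved NG2|EDmut cells and 1.44, 0.983 and 2.09 CPM in NG2|EDmut cells in serum, against 12.8, 10.0 and 15.3 CPM in starved control cells and 22.9, 63.7 and 40.2 CPM in control cells in serum. All 6 NG2|EDmut libraries were below the lowest control library, and the groups were apart within each line, with an interaction of 3.42 ± 0.49 (edgeR adjusted p = 0.00277). Gm3571, a processed pseudogene in the GENCODE annotation whose reads may belong to its parent gene and so uncertain, had an interaction of 3.41. The others were Pcyt2, of phosphatidylethanolamine synthesis (1.44), Fig4, a phosphoinositide phosphatase (1.19), Pi4k2b, a phosphatidylinositol kinase (0.94), Utp14b, Ppfibp2 and Tmem106a.

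Genes of fatty acid synthesis and desaturation that were called were mostly rises in NG2|EDmut cells alone. Of 14 tested genes 8 had a higher interaction, 6 of them as rises in NG2|EDmut cells alone (Acly, Acss2, Scd1, Scd2, Fads1 and Fads2) and 2 as falls in control cells alone (Mid1ip1 and Elovl1). The median response was 0.65 in NG2|EDmut cells and -0.16 in control cells. Scd1, a stearoyl-CoA desaturase, had 374, 401 and 417 CPM in starved NG2|EDmut cells and 189, 167 and 175 CPM in NG2|EDmut cells in serum, against 117, 90.8 and 118 CPM in starved control cells and 96.6, 155 and 123 CPM in control cells in serum. The NG2|EDmut groups were apart and the control groups overlapped (interaction 1.37 ± 0.23, edgeR adjusted p = 0.00629). Acss2, which makes acetyl-CoA from acetate, had an interaction of 1.77 ± 0.30, and Fads1, a desaturase of polyunsaturated fatty acids, 0.98 ± 0.14. The calls were 57.1% of the list, beside 4.39% of all genes tested. Without control serum replicate 1 the count was 11 (78.6%, beside 20.2% of all genes). It was 5 without NG2|EDmut serum replicate 1, NG2|EDmut serum replicate 2 or NG2|EDmut starvation replicate 2, and 5 to 8 over all of the other 11 libraries.

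The 44 genes that fell in NG2|EDmut cells and rose in control cells held immediate early genes and inhibitors of ERK signaling. Of 17 ERK feedback genes, all tested, 12 had a lower interaction: 5 opposite responders (Spry2, Spry4, Dusp6, Phlda1 and Errfi1), 5 falls in NG2|EDmut cells alone (Spry1, Spred1, Spred2, Etv4 and Etv5) and 2 rises in control cells alone (Dusp4 and Dusp5). The median response was -1.04 in NG2|EDmut cells and 0.70 in control cells, and the median interaction -1.93. The summed level of the list was 297, 299 and 287 CPM in starved NG2|EDmut cells and 598, 558 and 583 CPM in NG2|EDmut cells in serum, against 464, 411 and 466 CPM in starved control cells and 356, 324 and 301 CPM in control cells in serum. Neither line's starved and serum sums overlapped. The calls were 70.6% of the list, beside 4.39% of all genes tested. Without control serum replicate 1, 13 members had a lower and 1 a higher interaction (82.4% called, beside 20.2% of all genes). Leaving out each of the other 11 libraries gave 11 or 12 calls.

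Egr2 (ENSMUSG00000037868), a zinc finger transcription factor of the immediate early class, lies on chromosome 10 from 67535475 to 67542188, plus strand. It had 2.11, 2.11 and 2.03 CPM in starved NG2|EDmut cells and 6.58, 4.69 and 7.14 CPM in NG2|EDmut cells in serum, against 52.0, 41.5 and 57.0 CPM in starved control cells and 10.5, 4.36 and 3.78 CPM in control cells in serum. The starved control libraries were far above every other library, and the starved NG2|EDmut libraries were the lowest. The response was -1.56 in NG2|EDmut cells and 3.01 in control cells, and the interaction of -4.57 ± 0.47 was the most negative of all named genes (log2, SE; edgeR adjusted p = 0.000452).

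Dusp1 (ENSMUSG00000024190), a nuclear phosphatase of MAP kinases on chromosome 17 from 26505590 to 26562128, minus strand, had 13.7, 12.6 and 12.5 CPM in starved NG2|EDmut cells and 56.7, 63.6 and 54.3 CPM in NG2|EDmut cells in serum, against 40.4, 33.2 and 37.0 CPM in starved control cells and 17.8, 9.90 and 13.4 CPM in control cells in serum. Groups were apart in both lines, in opposite order. Its interaction was -3.59 ± 0.26 (edgeR adjusted p = 6.19e-05). Dusp6, the cytoplasmic phosphatase of ERK, had 16.9, 15.7 and 12.9 CPM in starved and 43.9, 39.6 and 57.9 CPM in serum-supplemented NG2|EDmut cells, and 67.7, 51.0 and 64.8 CPM in starved and 26.1, 10.0 and 8.20 CPM in serum-supplemented control cells. Its groups were apart in both lines too, with control serum replicate 1 the highest of its group, and the interaction was -3.68 ± 0.51. Spry4, a Sprouty inhibitor of receptor tyrosine kinase signaling, had an interaction of -3.57 ± 0.25, Errfi1, an inhibitor of the EGF receptor, -2.42 ± 0.27, and Phlda1 -2.38 ± 0.20.

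Of 23 immediate early genes, 8 had a lower interaction and 1, Nr4a2, a higher one. The opposite responders were Egr2, Egr3, Fosb and Nr4a1. Arc, which is induced by the same signals but was not on the list, had 3.83, 3.71 and 3.36 CPM in starved NG2|EDmut cells and 10.2, 10.7 and 15.2 CPM in NG2|EDmut cells in serum, against 23.1, 23.3 and 34.2 CPM in starved control cells and 7.09, 2.75 and 3.17 CPM in control cells in serum. As for Egr2, the starved control libraries were the highest, while starved NG2|EDmut cells and control cells in serum overlapped (interaction -4.35 ± 0.46). In Egr1 and Fos, counted under control cells alone, NG2|EDmut cells missed the threshold: Egr1 had 41.2, 33.9 and 34.8 CPM in starved and 136, 114 and 128 CPM in serum-supplemented NG2|EDmut cells (edgeR adjusted p = 0.0519), and 266, 202 and 236 CPM in starved and 103, 25.1 and 29.2 CPM in serum-supplemented control cells. Its interaction was -3.95 ± 0.60, and without control serum replicate 1 both Egr1 and Fos were opposite responders. The immediate early calls were 39.1% of the list, beside 4.39% of all genes tested. Without control serum replicate 1 the count was 15 (65.2%, beside 20.2% of all genes), and 9 or 10 without each other library.

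**Figure D4:**
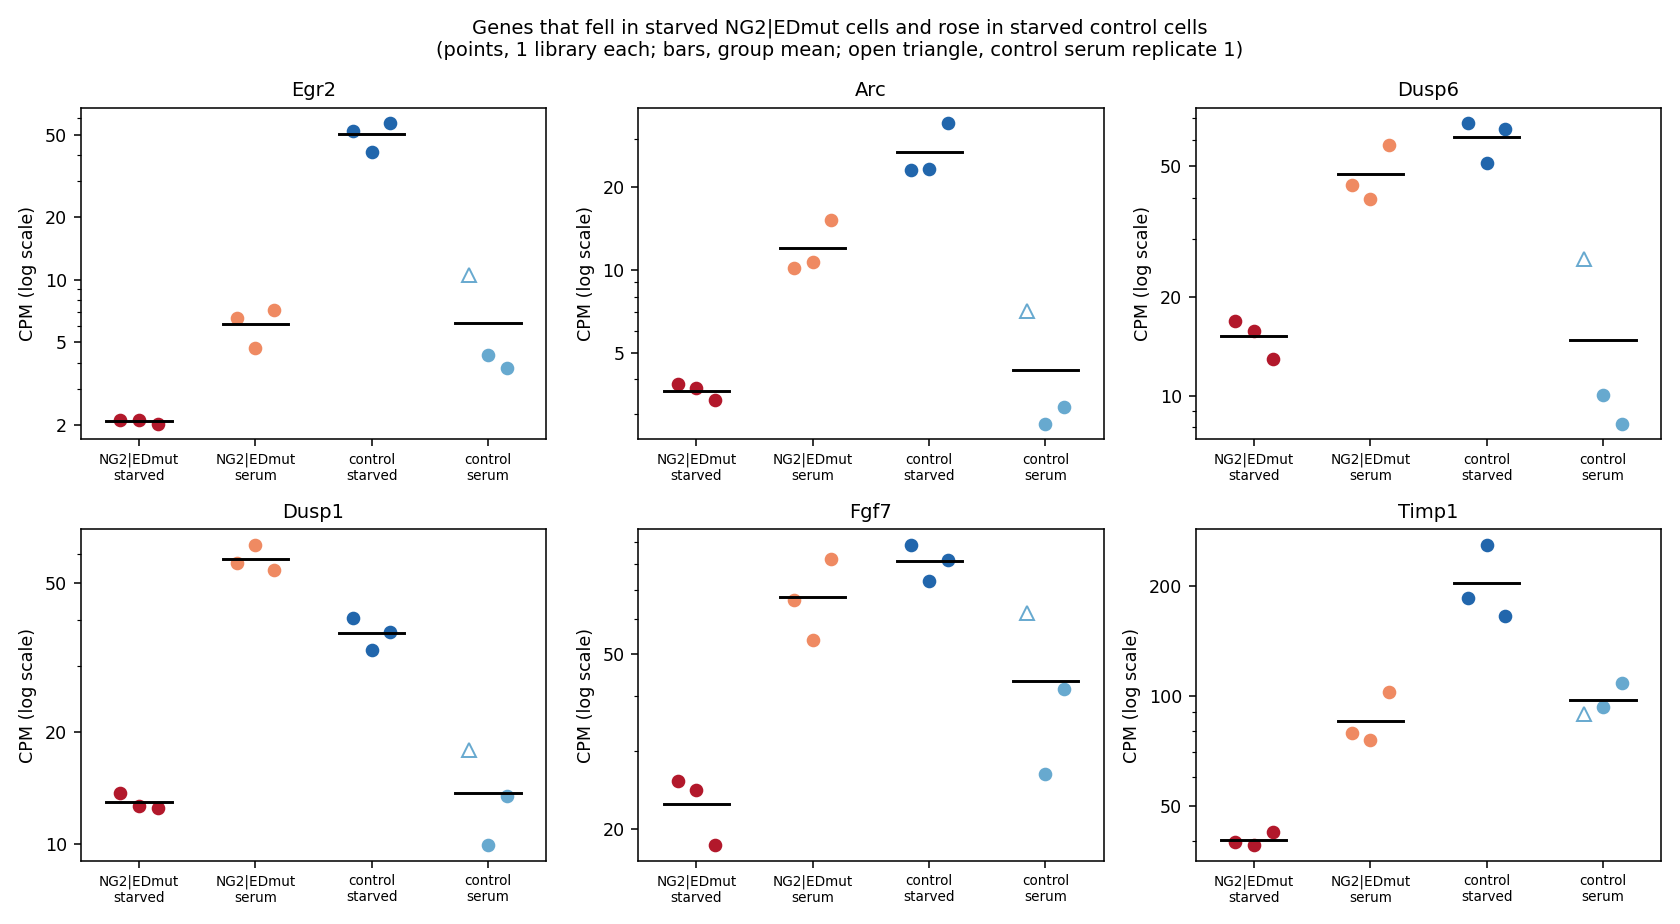
Level (CPM, log axis) of Egr2, Arc, Dusp6, Dusp1, Fgf7 and Timp1 in each library, with starved NG2|EDmut, serum-supplemented NG2|EDmut, starved control and serum-supplemented control cells from left to right; points are libraries, the open triangle is control serum replicate 1, and bars are group means. In each gene the starved NG2|EDmut libraries lie below NG2|EDmut cells in serum, and the starved control libraries lie above control cells in serum.

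The promoters of Egr2 and Dusp1 are shown because both genes fell in NG2|EDmut cells and rose in control cells, and their windows hold a motif of serum response factor (Egr2) and of CREB (Dusp1), factors known to activate immediate early genes. The CArG box (CC, then 6 bases of A or T, then GG) was in 1 of the 35 promoters of that class that the RefSeq table holds (2.86%, Egr2), beside 1.59% of all, and in 2 of 17 immediate early promoters (11.8%). The cAMP response motif TGACGTCA was in 2 of the 35 (5.71%), Dusp1 among them, beside 3.35% of all. The Egr2 window is chr10:67537619-67537918 on the plus strand, 1 of 5 listed starts, of which 4 windows hold a CArG box, and the Dusp1 window is chr17:26508423-26508722 on the minus strand. Capitals mark the matches, which begin 72 bases before the start in Egr2 and 143 before it in Dusp1:
Egr2: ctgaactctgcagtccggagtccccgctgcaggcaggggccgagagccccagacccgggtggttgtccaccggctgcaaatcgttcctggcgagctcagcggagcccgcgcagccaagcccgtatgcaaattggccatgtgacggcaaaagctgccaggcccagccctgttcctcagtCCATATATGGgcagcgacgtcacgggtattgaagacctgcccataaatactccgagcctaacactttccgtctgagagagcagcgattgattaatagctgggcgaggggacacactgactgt
Dusp1: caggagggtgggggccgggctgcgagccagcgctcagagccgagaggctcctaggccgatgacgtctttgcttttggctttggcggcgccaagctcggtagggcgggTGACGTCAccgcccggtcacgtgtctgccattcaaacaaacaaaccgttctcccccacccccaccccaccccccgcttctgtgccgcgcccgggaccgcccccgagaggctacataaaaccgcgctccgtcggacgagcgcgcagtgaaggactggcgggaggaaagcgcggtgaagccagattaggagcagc
The shares of the class were near those of all promoters.

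Secreted and matrix genes were also among the falls in NG2|EDmut cells with rises in control cells. Fgf7, a growth factor that mesenchyme sends to epithelium, had 25.7, 24.5 and 18.3 CPM in starved NG2|EDmut cells and 66.2, 53.7 and 82.4 CPM in NG2|EDmut cells in serum, against 88.7, 73.3 and 81.9 CPM in starved control cells and 61.9, 26.6 and 41.6 CPM in control cells in serum. Timp1, an inhibitor of matrix metalloproteinases, had 39.7, 38.9 and 42.4 CPM in starved and 78.9, 75.4 and 102 CPM in serum-supplemented NG2|EDmut cells, and 185, 259.9 and 166 CPM in starved and 89.2, 93.4 and 109 CPM in serum-supplemented control cells. Groups were apart within each line for both genes, with interactions of -2.47 ± 0.37 for Fgf7 (edgeR adjusted p = 0.00356) and -2.15 ± 0.24 for Timp1 (edgeR adjusted p = 0.000698). Hmga2, a chromatin protein of growing mesenchyme, had an interaction of -2.80 ± 0.36, and its control rise was smaller without control serum replicate 1 (0.56, beside 0.84 with it). Ackr4, a scavenging chemokine receptor, had -2.98 ± 0.45, Arhgap24, a GTPase activator for Rac, -1.91 ± 0.18, and Irf1, an interferon regulatory factor, -1.10 ± 0.15.

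Genes of pyrophosphate and mineral control were split between the classes. Ank, which exports pyrophosphate, an inhibitor of mineral deposition, had 119, 112 and 119 CPM in starved NG2|EDmut cells and 213, 182 and 225 CPM in NG2|EDmut cells in serum, against 417, 369 and 455 CPM in starved control cells and 171, 153 and 148 CPM in control cells in serum. Groups did not overlap in either line, and the interaction was -2.22 ± 0.16 (edgeR adjusted p = 6.19e-05). Enpp1, which makes pyrophosphate, had 3.66, 4.53 and 5.52 CPM in starved and 7.14, 6.84 and 7.46 CPM in serum-supplemented NG2|EDmut cells, and 75.2, 45.0 and 76.3 CPM in starved and 14.7, 12.6 and 10.9 CPM in serum-supplemented control cells. Only its control response passed (2.36), and the interaction was -3.01 ± 0.30. Alpl and Phospho1, phosphatases that favour mineral deposition and were singled out after their values were seen, went the other way, with interactions of 2.03 ± 0.37 and 2.12 ± 0.36 and control responses of -2.09 and -2.16. Of 38 tested ossification genes, 6 had a higher and 6 a lower interaction (31.6% called, beside 4.39% of all genes tested). Without control serum replicate 1, 21 were called (55.3%, beside 20.2% of all genes), and 9 to 12 without each other library.

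Among the 30 rises in NG2|EDmut cells alone, Daam2, a formin of the WNT pathway, had 258, 278 and 263 CPM in starved NG2|EDmut cells and 99.0, 98.6 and 99.3 CPM in NG2|EDmut cells in serum, against 52.6, 31.1 and 53.4 CPM in starved control cells and 61.7, 74.0 and 48.4 CPM in control cells in serum. Its control groups overlapped, and its interaction was 1.85 ± 0.28 (edgeR adjusted p = 0.00343). Sulf1, a heparan sulfate sulfatase that tunes growth factor binding, had an interaction of 1.87 ± 0.28, Ddit4, an inhibitor of mTOR signaling, 1.06 ± 0.20, and Col23a1, a transmembrane collagen, 1.42 ± 0.21. Enpp2, the lysophospholipase autotaxin, had 44.7, 39.0 and 40.8 CPM in starved NG2|EDmut cells and 12.8, 12.5 and 9.29 CPM in NG2|EDmut cells in serum, against 4.03, 5.85 and 11.2 CPM in starved control cells and 8.12, 12.8 and 4.66 CPM in control cells in serum. Its call (interaction 2.13 ± 0.53) was lost without each library except control serum replicates 1 and 3 and control starvation replicate 3, with adjusted p up to 0.103 in edgeR. Arrdc4 (2.02) and Lrrc17 (1.84) lost theirs as widely, with edgeR adjusted p up to 0.0931 and 0.112: Arrdc4 kept it without NG2|EDmut serum replicate 3 or control serum replicate 1 alone, and so did Lrrc17.

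Among the 58 falls in NG2|EDmut cells alone, Etv5 and Etv4, ETS transcription factors induced by ERK, had interactions of -2.54 ± 0.34 and -2.15 ± 0.33. Bmp4, a bone morphogenetic protein, had 17.6, 16.8 and 17.8 CPM in starved NG2|EDmut cells and 57.1, 68.8 and 59.9 CPM in NG2|EDmut cells in serum, against 55.9, 62.6 and 58.7 CPM in starved control cells and 65.1, 40.9 and 64.6 CPM in control cells in serum. Starved NG2|EDmut cells were below all other libraries, which overlapped (interaction -1.88 ± 0.23, edgeR adjusted p = 0.00103). Adamts5, a cartilage aggrecanase, had 9.04, 8.20 and 11.1 CPM in starved and 39.0, 36.9 and 36.2 CPM in serum-supplemented NG2|EDmut cells, and 21.5, 16.7 and 16.3 CPM in starved and 24.8, 17.0 and 18.7 CPM in serum-supplemented control cells. Its control groups overlapped as well, and its interaction was -1.84 ± 0.24. Maff, a small MAF transcription factor, had -2.26 ± 0.23, Tnfaip3, an inhibitor of NF-κB signaling, -2.08 ± 0.32, and Inhbb, an activin subunit, -1.38 ± 0.23. Ptx3, a secreted pentraxin, had -2.19 ± 0.43 and, like Etv5, was an opposite responder without control serum replicate 1, where its control response was 1.20, beside 0.60 with all libraries.

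Genes of mitosis fell in control cells alone. Of 36, all tested, 27 had a higher interaction, each as a fall in control cells alone, with a median response of -0.09 in NG2|EDmut cells and -3.11 in control cells. Their summed level was 1526, 1595 and 1479 CPM in starved NG2|EDmut cells and 1690.2, 1518 and 1936 CPM in NG2|EDmut cells in serum, against 596, 459 and 435 CPM in starved control cells and 868, 6009.5 and 6070.5 CPM in control cells in serum. Control serum replicate 1 was nearer to the starved control libraries than to the other 2 of its group. The count rested on single libraries. With all libraries it was 75.0% of the list, beside 4.39% of all genes tested. It was 36 without control serum replicate 1 (100%, beside 20.2% of all genes). Leaving out each of the other 11 libraries gave a count of 1 (without NG2|EDmut serum replicate 2) to 12 (without control starvation replicate 1). It was 2 with the replicate number as a block.

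Cenpf (ENSMUSG00000026605), a kinetochore protein on chromosome 1 from 189640606 to 189688086, minus strand, had 24.8, 32.9 and 32.3 CPM in starved NG2|EDmut cells and 26.5, 18.9 and 26.2 CPM in NG2|EDmut cells in serum, against 9.18, 6.80 and 10.1 CPM in starved control cells and 19.2, 99.1 and 88.5 CPM in control cells in serum. The NG2|EDmut groups overlapped, and the control groups were apart, with serum replicate 1 far below its group. Its interaction of 3.32 ± 0.63 (edgeR adjusted p = 0.0126; 3.76 without that replicate) passed under each library left out. The promoter of Cenpf is shown for the cell cycle homology motif TTTGAA, which was chosen after values were seen. It was in 24 of 31 mitosis promoters (77.4%) and in 62 of 238 promoters of genes that fell in control cells alone (26.1%), beside 14.6% of all. The window is chr1:189688037-189688336 on the minus strand, and the match, in capitals, begins 2 bases after the start:
Cenpf: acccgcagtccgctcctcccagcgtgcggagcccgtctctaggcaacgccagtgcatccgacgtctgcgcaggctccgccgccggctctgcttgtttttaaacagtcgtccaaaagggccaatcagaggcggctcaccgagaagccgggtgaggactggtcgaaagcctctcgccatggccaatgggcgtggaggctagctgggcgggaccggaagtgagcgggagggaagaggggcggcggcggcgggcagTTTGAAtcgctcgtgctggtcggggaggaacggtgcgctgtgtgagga

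Genes of DNA replication fell in control cells, with no called interaction. None of the 44 had an interaction in edgeR with all libraries, where 4 had an unadjusted p under 0.05 and DESeq2 called 1. Without control serum replicate 1, 35 were called (79.5%, beside 20.2% of all genes), of which 33 fell in both lines. The median response was -0.999 in NG2|EDmut cells, where 1 gene passed, and -1.68 in control cells, where 41 passed. The summed level was 1269, 1234 and 1139 CPM in starved NG2|EDmut cells and 2299, 2241 and 2244 CPM in NG2|EDmut cells in serum, against 1238, 1084 and 1068 CPM in starved control cells and 1183, 4315 and 4222 CPM in control cells in serum. The NG2|EDmut sums were apart, while control serum replicate 1 lay within the range of the starved control libraries.

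Ribosome biogenesis genes also passed as falls in control cells alone, though their sum fell in both lines. Of 40 tested genes 18 had a higher interaction, each as a fall in control cells alone, with a median response of -0.16 in NG2|EDmut cells and -0.99 in control cells. Their summed level was 5259.7, 5297 and 5252 CPM in starved NG2|EDmut cells and 6392, 6124 and 5694 CPM in NG2|EDmut cells in serum, against 2777, 3016 and 2878 CPM in starved control cells and 4174, 5805 and 5440.5 CPM in control cells in serum. Starved control cells were below every other group. The NG2|EDmut sums were apart too, with starved cells lower. The calls were 45.0% of the list, beside 4.39% of all genes tested. The count was 34 without control serum replicate 1 (85.0%, beside 20.2% of all genes), where 4 moved the same way in both lines. The count was 1 to 9 without each other library. It was 1 without NG2|EDmut serum replicate 2, any of the 3 NG2|EDmut starvation replicates or control serum replicate 2. Nol10, a nucleolar protein, had an interaction of 0.91 ± 0.17 (edgeR adjusted p = 0.0116), which passed under every library left out.

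Lysosome and autophagy genes rose in control cells in the main. Of 36 tested genes 25 rose in control cells and 1 in NG2|EDmut cells, beside rises of 9.45% and 0.957% of all genes tested. A lower interaction was called in 4 (Gpnmb, Ctsd, Lamp1 and Hexa), or 11.1%, beside 4.39% called over all genes. Without control serum replicate 1 there were 24 (66.7%, beside 20.2% of all genes), and 2 or 3 without each other library. Ctsd, the protease cathepsin D, had 982, 861 and 853 CPM in starved NG2|EDmut cells and 698, 717 and 804 CPM in NG2|EDmut cells in serum, against 1605, 1666 and 1591 CPM in starved control cells and 810.3, 602 and 646 CPM in control cells in serum. Both lines' starved libraries were above their serum ones, but the NG2|EDmut response of 0.28 did not pass (edgeR adjusted p = 0.38), and the interaction was -0.96 ± 0.18. Gpnmb, a lysosomal glycoprotein, had -1.08 ± 0.19.

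**Figure D5:**
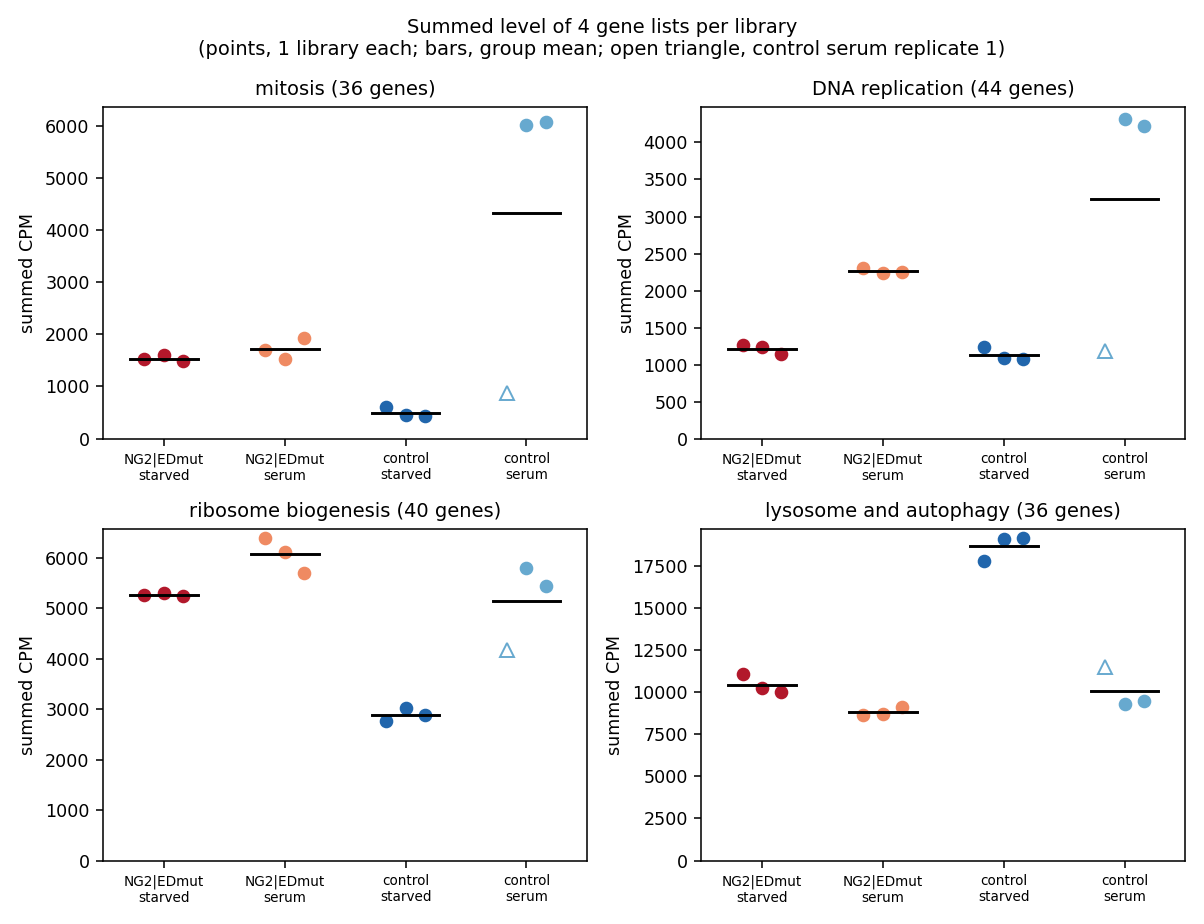
Summed level (CPM) of 4 gene lists in each library: mitosis, DNA replication, ribosome biogenesis, and lysosome and autophagy, with starved NG2|EDmut, serum-supplemented NG2|EDmut, starved control and serum-supplemented control cells from left to right; points are libraries, the open triangle is control serum replicate 1, and bars are group means. Control serum replicate 1 lies apart from replicates 2 and 3 of its group in each list, toward the starved control libraries.

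The largest positive interactions of named genes were falls in control cells alone. Padi2, a peptidylarginine deiminase, had 4.08, 5.70 and 4.90 CPM in starved NG2|EDmut cells and 1.21, 1.11 and 1.66 CPM in NG2|EDmut cells in serum, against 1.49, 1.61 and 1.23 CPM in starved control cells and 8.99, 59.9 and 27.9 CPM in control cells in serum. Its groups did not overlap in either line, but the NG2|EDmut response of 1.88 missed the threshold (edgeR adjusted p = 0.0878), and its interaction was 6.37 ± 0.74. Npnt, nephronectin, a matrix ligand of integrins, had an interaction of 3.99 ± 0.55. Without control serum replicate 1 both were opposite responders. Car3, a carbonic anhydrase, had 11.8, 12.7 and 17.6 CPM in starved and 24.6, 28.7 and 33.5 CPM in serum-supplemented NG2|EDmut cells, and 0.682, 0.918 and 1.35 CPM in starved and 20.1, 38.6 and 38.1 CPM in serum-supplemented control cells, with an interaction of 3.99 ± 0.42. Its NG2|EDmut groups were apart too, with starved cells lower, and without that replicate it fell in both lines.

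WNT signaling genes that were called were mostly falls in control cells alone. Of 42 tested, 8 had a higher and 2 a lower interaction, and 7 of the higher ones were falls in control cells alone. Wnt7b, a WNT ligand, had 41.9, 40.9 and 47.1 CPM in starved NG2|EDmut cells and 17.2, 20.2 and 18.8 CPM in NG2|EDmut cells in serum, against 3.51, 3.02 and 3.70 CPM in starved control cells and 8.39, 51.8 and 35.0 CPM in control cells in serum. Its groups were apart within each line, and the interaction was 4.42 ± 0.64 (edgeR adjusted p = 0.00297). The NG2|EDmut response of Wnt7b, 1.21, missed the threshold with all libraries (edgeR adjusted p = 0.23). Without control serum replicate 1 the same response of 1.21 passed (edgeR adjusted p = 0.000365). Nkd2, an inhibitor of WNT signaling, had 4.17 ± 0.70, and Tcf7, a transcription factor of the pathway, 1.99 ± 0.23. The feedback genes Axin2 (2.55), Rnf43 (3.24) and Apcdd1 (3.81), named after their values were seen, fell in control cells alone as well, and Dkk3 (-1.83 ± 0.26) rose in them. The calls were 23.8% of the list, beside 4.39% of all genes tested. Without control serum replicate 1 the list count was 18 (42.9%, beside 20.2% of all genes), and 7 to 10 without each other library. Of the 18, 5 rose in NG2|EDmut cells and fell in control cells, Wnt7b and Nkd2 among them, beside 0.545% of all genes tested.

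The rises in control cells alone included Dio2, the deiodinase that activates thyroid hormone, with 0.743, 1.05 and 1.21 CPM in starved NG2|EDmut cells and 0.962, 1.46 and 1.98 CPM in NG2|EDmut cells in serum, against 35.3, 25.4 and 35.4 CPM in starved control cells and 2.39, 6.57 and 7.72 CPM in control cells in serum. The control groups were apart and the NG2|EDmut ones overlapped (interaction -3.08 ± 0.55). Itgb5, an integrin subunit, had 442, 407 and 405 CPM in starved and 396, 433 and 417 CPM in serum-supplemented NG2|EDmut cells, and 1092, 1061 and 1109 CPM in starved and 518, 401 and 422 CPM in serum-supplemented control cells. Its interaction was -1.27 ± 0.16. Il1rl1, a receptor of interleukin 33, had -2.07 ± 0.28, Selenop, a secreted selenium carrier, -1.77 ± 0.30, and Btg2, an antiproliferative gene, -1.91 ± 0.33. Gm12248 (-3.04 ± 0.76) lost its call in 12 of 21 alternatives.

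In 13 genes both lines moved the same way. Rgs16, which shortens G protein signals, had 1.12, 1.18 and 0.935 CPM in starved NG2|EDmut cells and 23.8, 26.5 and 15.3 CPM in NG2|EDmut cells in serum, against 0.751, 1.11 and 1.04 CPM in starved control cells and 2.56, 2.16 and 2.27 CPM in control cells in serum. The starved groups of both lines overlapped at low levels, and serum-supplemented NG2|EDmut cells were the high group (interaction -3.07 ± 0.32). Ccn2, connective tissue growth factor and a YAP target, fell by 2.56 in NG2|EDmut cells and by 1.27 in control cells on the log2 scale (interaction -1.29 ± 0.23, edgeR adjusted p = 0.00853), and Thbs1, thrombospondin 1, fell by 1.92 in NG2|EDmut cells and by 0.81 in control cells. In the other direction, Spon2, a secreted matrix protein, rose by 1.25 in NG2|EDmut cells and 3.29 in control cells, and Sesn1, a stress-induced inhibitor of mTORC1 signaling, by 0.64 in NG2|EDmut cells and 1.72 in control cells, with interactions of -2.04 ± 0.25 and -1.08 ± 0.16.

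Of 14 genes of NG2/CSPG4, its ligands and partners, 3 had a higher interaction (21.4%, beside 4.39% of all genes tested). Without control serum replicate 1, 5 were called (35.7%, beside 20.2% of all genes), and 1 to 3 without each other library. Pdgfa, a growth factor that NG2 binds, had 148, 150.0 and 151 CPM in starved NG2|EDmut cells and 136, 148 and 129 CPM in NG2|EDmut cells in serum, against 13.8, 18.9 and 17.2 CPM in starved control cells and 33.2, 115 and 126 CPM in control cells in serum. Only the control response passed (interaction 2.57 ± 0.50, edgeR adjusted p = 0.0145). Col6a1, a chain of type VI collagen, had 1107, 1052 and 929 CPM in starved and 515, 491 and 690.4 CPM in serum-supplemented NG2|EDmut cells, and 3431, 2796 and 3402 CPM in starved and 2963, 4930.3 and 3549 CPM in serum-supplemented control cells. NG2|EDmut groups were apart and control groups overlapped, with an interaction of 1.11 ± 0.27 for Col6a1 and 1.35 ± 0.34 for Col6a2. Both calls were lost without any library except control serum replicate 1 and NG2|EDmut serum replicate 3, with edgeR adjusted p up to 0.117 and 0.124.

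Migration, adhesion and matrix genes, the processes for which the truncation was studied, are given beside the shares called over all tested genes, 4.39% with all libraries and 20.2% without control serum replicate 1. Migration regulators had 3 higher and 6 lower interactions of 64 tested (14.1% called; 22 calls, or 34.4%, without control serum replicate 1, and 4 to 8 without each other library), with a median interaction of -0.20. Rhob, a small GTPase, had 88.1, 85.6 and 82.9 CPM in starved NG2|EDmut cells and 94.6, 93.0 and 88.9 CPM in NG2|EDmut cells in serum, against 242, 253 and 253 CPM in starved control cells and 127, 141 and 139 CPM in control cells in serum. Starved control cells were the high group, and the interaction was -0.98 ± 0.12. Adhesion receptors had 3 lower of 45 (Itgb5, Vcam1 and Itga7), collagens 5 higher of 39, matrix glycoproteins 2 higher and 3 lower of 69, and matrix proteases and inhibitors 6 lower of 44. These are 6.67%, 12.8%, 7.25% and 13.6% of each list, with adhesion receptors and matrix glycoproteins near the share of all genes. In the same order they had 10, 13, 19 and 14 calls without control serum replicate 1 (22.2%, 33.3%, 27.5% and 31.8%), where adhesion receptors again lay near it, and 3 to 4, 2 to 5, 3 to 7 and 2 to 5 without each other library. Tnc, the matrix glycoprotein tenascin C, had an interaction of 1.56 ± 0.29, and Col15a1, a basement membrane collagen, 3.44 ± 0.65. Actin and contractile targets of serum response factor had 1 lower of 31 (Zyx, -1.33 ± 0.17), 16 higher and 1 lower without control serum replicate 1, and 1 call without each other library.

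The remaining lists are given by counts of higher and lower interactions among tested genes, beside the 4.39% called over all genes. They were 2 and 0 of 25 for cartilage, 3 and 4 of 46 for TGF-beta and BMP signaling, 3 and 7 of 43 for growth factors of the PDGF, FGF, IGF, EGF and HGF families, and 0 and 4 of 33 for chemokines and cytokines. For FOXO and quiescence they were 1 and 7 of 33, for CCN and YAP targets 0 and 4 of 18, for ATF4 and amino acid supply 2 and 0 of 30, and for p53 targets 0 and 3 of 25. For glycolysis they were 1 and 2 of 28, for NRF2 and antioxidant genes 1 and 1 of 32, for interferon response 0 and 1 of 33, and for the circadian clock 0 and 1 of 19. The interferon list (3.03%), the clock (5.26%), NRF2 genes (6.25%), ATF4 genes (6.67%) and cartilage (8.0%) lay near the share of all genes, and the other 7 lists had 10.7% to 24.2% called. Without control serum replicate 1 the calls were 7, 17, 13, 6, 19, 6, 11, 6, 10, 10, 5 and 4 in the order given, or 15.2% (interferon) to 57.6% (FOXO) of a list beside 20.2% of all genes, with the clock (21.1%), chemokines (18.2%) and p53 targets (24.0%) near that share, and without each other library they ranged from 0 (cartilage and clock) to 9 (growth factors). Among the growth factor genes, Fgfr2, a receptor of fibroblast growth factors, had an interaction of 1.20 ± 0.17 and Fgf10 of -1.40 ± 0.24, and among TGF-beta genes Inhba, an activin subunit, had 1.60 ± 0.19 and Bambi, a decoy receptor, 1.76 ± 0.26.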

How the data were processed

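RNA of 12 libraries, 3 biological replicates in each of 4 groups, was sequenced from poly(A) TruSeq stranded libraries as paired ends on an Illumina NovaSeq. Per the study's methods and the submitters' notes, HISAT2, StringTie, perl scripts with gffcompare, edgeR and FastQC were used; their versions, the genome build and the strand setting are not stated there. The authors deposited estimated counts per gene from StringTie coverage, which were already whole numbers, so 1 unit is not 1 read, and FPKM values, which were used in alternatives only. Ribosomal RNA genes took 0.4899 to 4.817% of a library and stayed in the totals, and 61 symbols were carried by more than 1 gene.

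The main fit was edgeR 4.0.16 in R 4.3.3, with filterByExpr, TMM normalization, a mean for each of the 4 groups (8 residual, 3.91 prior degrees of freedom) and the quasi-likelihood test of the interaction and of each line's response, adjusted over all tested genes. The script was also run on simulated counts, with gene levels and spreads taken from these data. There the edgeR test recovered 1 of 56 interactions of 1.5-fold (1.79%), 6 of 73 of 2-fold (8.22%) and 44 of 71 of 4-fold (62%). It made 3 false calls among 18232 genes tested, so many smaller interactions would be missed. Genes named are, among interactions with a group mean of at least 10 CPM, the 8 largest opposite responders in each direction, the 5 largest in each direction of 1 line alone, the 3 largest of same direction per line, up to 4 per list with the smallest adjusted p, and Cspg4; some of these genes are not reported here. The 29 lists were used as counts and medians with no list test. Members, lists and tests were chosen with earlier results of these data known. Alternatives were DESeq2 1.42.0, limma 3.58.1 on log2(FPKM + 1) and log2(FPKM + 0.1), RLE or library total scaling, other filters, counts divided by 4, an absolute log2 of at least 1, the replicate number as a block, and each library left out. Promoters came from the RefSeq table of GRCm38.p6.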

Additional observations from a re-analysis of the deposited data

Results flagged for a closer look

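These results are listed because the difference between the responses of the 2 lines was itself tested, as the interaction. In all, 821 genes passed, of which 67 responded in opposite directions in NG2|EDmut and control cells. The opposite responders that rose in NG2|EDmut cells with the largest interactions (log2, NG2|EDmut response minus control response) were Hmgcs1 (3.55), Fdps (3.47), Cyp51 (3.44), Pi15 (3.42), Gm3571 (3.41, a pseudogene whose reads may belong to its parent gene), Hsd17b7 (3.37) and Msmo1 (3.27). Those that fell in NG2|EDmut cells were Egr2 (-4.57), Arc (-4.35), Egr3 (-3.79), Dusp6 (-3.68), Dusp1 (-3.59), Spry4 (-3.57), Ackr4 (-2.98) and Hmga2 (-2.80). Control serum replicate 1 stood apart from its group, and its part in these values was measured by leaving it out: all of these genes were still called as opposite responders, with Hmgcs1 at 3.86 and Egr2 at -5.18. Each of these interactions also passed under every other alternative.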

How the results depend on the processing

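The counts and the balance of directions depended on the setting, while none of the 116 named genes reversed. DESeq2 called 1773 interactions (156 opposite, 186 in NG2|EDmut cells alone, 1279 in control cells alone and 48 in the same direction). An absolute log2 of at least 1 left 559 (29, 58, 317 and 3 in the same order). With no filter on low counts the opposite class had 43 genes and the same direction class 8. Over the libraries left out in turn, the total ranged from 339 to 3901, with 23 to 249 opposite, 39 to 237 in NG2|EDmut cells alone, 255 to 2898 in control cells alone and 4 to 355 in the same direction. The highest of each range came without control serum replicate 1; each setting without another library also has 1 sample fewer. Mitosis genes called numbered 27 in the main, 13 with no filter, 6 and 9 with limma on log2(FPKM + 1) and log2(FPKM + 0.1), and ribosome biogenesis genes 18 in the main, 6 with no filter, 9 at an absolute log2 of at least 1 and 33 with DESeq2. The NG2|EDmut response was called in 994 genes with DESeq2 and 241 with the block, beside 385. The share of higher interactions was 57.7% with library totals alone and 50.1% with RLE factors, beside 46.3% with TMM. It was 38.1% with the replicate number as a block and 38.3% without NG2|EDmut serum replicate 2.

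The replicate number as a block gave 443 calls (51 opposite, 59 in NG2|EDmut cells alone, 308 in control cells alone and 8 in the same direction), and 2 mitosis and 2 ribosome biogenesis genes. The labels do not say that a number marks a shared batch. Deviations of same-numbered libraries had correlations of -0.1253 to 0.0939 over 18 pairs, none above 0.1. Over 36 pairs with unlike numbers the range was -0.1315 to 0.2087, with 3 above 0.1. These values gave no sign of pairing by number, and a shared batch was not tested. Of 116 named genes, 80 stayed on the same side of the threshold in all alternatives, and none reversed. With 3 cultures per group, a gene with no call is not shown to respond alike in both lines.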
